A study of Mus musculus with 48 samples.

Results

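The data cover 9 mouse long noncoding RNAs known for their place in the nucleus, Malat1, Neat1, Meg3, Rian, Mirg, Miat, Snhg11, Kcnq1ot1 and Lncpint, in RNA from whole cortex, from synaptosomes and from the ribosome pellets of both. The members were the rows of the count table whose Ensembl identifier GENCODE pairs with these symbols, 9 of 48526 rows, and all 9 passed the filter on low counts in every fit. The samples came from male C57BL/6JRj mice without any further genetic change or treatment, 4 mice at each of 3 ages, 3 weeks (3w), 5 months (5m; the sample labels give 6 months, the protocol 5) and 18 months (18m). Each of the 12 mice gave 4 libraries and carries the number of its labels, 187 to 190 at 3w, 191 to 194 at 5m and 195 to 198 at 18m. Total homogenate (TH) is the whole cortex lysate, and synaptosomes (SYN) are pinched-off synaptic endings that were separated from it on a sucrose gradient. Each was sequenced as input RNA (input_TH, input_SYN) and after centrifugation through a sucrose cushion in cycloheximide, which pellets ribosomes with the RNA bound to them (SC_TH, SC_SYN). The protocol describes needle shearing and a clearing spin for TH lysates before the cushion and gives no such step for SYN lysates, so the compartment and this step cannot be told apart in any comparison of SC_SYN with SC_TH. No such spin is described for input_TH, so clearing and cushion cannot be told apart in SC_TH against input_TH.

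A synaptosome is cut off from its cell body and holds no nucleus, and a ribosome pellet is meant to hold RNA under translation. RNAs that are kept in the nucleus and are not translated are therefore used as a measure of what a preparation carries over from other compartments, although a sucrose cushion pellets any particle that is heavy enough. The members take different places in the nucleus. Malat1 is a very abundant RNA of the nuclear speckles, the bodies that store splicing factors, and Neat1 is the scaffold on which paraspeckles assemble. Meg3, Rian and Mirg are transcribed from the maternal copy of the imprinted Dlk1-Dio3 domain, where Rian is a host of C/D box small nucleolar RNAs and Mirg of microRNAs. Miat, also called Gomafu, is a neuronal RNA that binds splicing factors, and Snhg11 is a neuronal host of small nucleolar RNAs. Kcnq1ot1 is transcribed from the paternal copy of the Kcnq1 domain and silences its neighbours on the same chromosome, and Lncpint is a p53 target known to interact with the Polycomb complex.

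In the GENCODE annotation of GRCm38, Malat1 (ENSMUSG00000092341) lies on the minus strand of chr19:5795690-5802672 and Neat1 (ENSMUSG00000092274) on the same strand at chr19:5824708-5845478, with 22035 bases between them. The annotated exons of each merge to a single block, of 6983 and 20771 bases. Malat1 and the longest Neat1 transcript do not end in an ordinary poly(A) tail. Their 3′ ends are cut by RNase P and protected by a triple helix of U-rich stretches and an A-rich stretch. These stretches are printed here because they are what keeps both transcripts stable without a tail. The capitals mark TTTCTTTT, TTTGCTTTT and AAAGCAAAA, searched in this order on the transcribed strand with at most 80 bases between neighbours. Among the longest transcripts of 29786 genes that reach 1000 bases, 2 held all 3 in order, those of Malat1 and Neat1 (0.00671%). The motifs were set as stretches of these 2 RNAs, so their own hits were fixed in advance. Only the lack of hits in other genes is a result of the search. The Malat1 stretch lies at chr19:5795982-5796071 and the Neat1 stretch at chr19:5824708-5824807, both read 5′ to 3′ on the minus strand.
Malat1: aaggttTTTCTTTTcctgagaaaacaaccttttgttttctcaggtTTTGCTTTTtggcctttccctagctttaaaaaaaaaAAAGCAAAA
Neat1: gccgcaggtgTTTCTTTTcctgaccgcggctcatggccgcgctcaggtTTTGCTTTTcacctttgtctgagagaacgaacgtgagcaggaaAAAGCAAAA

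Meg3 (ENSMUSG00000021268; chr12:109541001-109571726), Rian (ENSMUSG00000097451; chr12:109603940-109661716) and Mirg (ENSMUSG00000097391; chr12:109729764-109749460) follow each other on the plus strand within 208460 bases. The annotation places 18 small RNA genes inside Rian and 15 inside Mirg, 9 of them over exons in each. Reads were counted without regard to strand, and no option for reads that overlap several genes is listed. Where these small RNAs overlap an exon, their reads cannot be told apart from reads of the host. Such reads may also be left out of both counts. RefSeq (GRCm38.p6) holds 3 mature microRNAs within Meg3, 6 within Rian and 26 within Mirg. Among the 26 of Mirg, the seed (bases 2 to 8, in capitals) was shared by a single pair, miR-453 and miR-496a-5p. The first lies at chr12:109735669-109735692 and the second at chr12:109739132-109739152, on the plus strand. They are printed with miR-134-5p (chr12:109734145-109734166), which is known for its role in dendritic spines, because their host Mirg had the lowest carry-over into the TH pellet of the 9 RNAs.
mmu-miR-453: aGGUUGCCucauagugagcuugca
mmu-miR-496a-5p: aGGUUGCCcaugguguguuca
mmu-miR-134-5p: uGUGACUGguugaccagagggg

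Miat (ENSMUSG00000097767) lies on the minus strand of chr5:112213228-112229395. Its binding to splicing factors is ascribed to repeats of TACTAAC, the sequence of the intron branch point, in capitals in the 2 windows below. The longest Miat transcript, of 9163 bases, held 6 copies on its own strand, 3 in each window. The motif occurred at least once in 7.66% of the longest transcripts of at least 1000 bases, and 3 of 29786 held 6 copies or more. Among the other members, Kcnq1ot1 held 4 in 93092 bases and Neat1 held 1, with none in the others. The first window lies at chr5:112217309-112217460 and the second at chr5:112216752-112216812.
Miat, first window: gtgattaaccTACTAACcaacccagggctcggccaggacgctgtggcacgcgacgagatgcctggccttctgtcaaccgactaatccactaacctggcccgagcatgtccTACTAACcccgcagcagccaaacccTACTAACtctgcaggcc
Miat, second window: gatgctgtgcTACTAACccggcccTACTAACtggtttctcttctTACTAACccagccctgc

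Snhg11 (ENSMUSG00000044349; plus strand of chr2:158375638-158386145) carries the annotation protein_coding, although it is known as a noncoding host gene. Kcnq1ot1 (ENSMUSG00000101609; minus strand of chr7:143203458-143296549) runs antisense to Kcnq1 as a single exon of 93092 bases. Lncpint (ENSMUSG00000044471; minus strand of chr6:31082565-31220488) has 7378 exonic bases. Other annotated genes shared between 1.2% (Kcnq1ot1) and 30.4% (Miat) of the members' exonic bases. In Miat, 2260 of the 2828 shared bases belong to Gm26953. Reads that overlap both genes cannot be told apart and may be left out of both counts.

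The deposited counts summed to between 1780267 and 18590040 reads per library. In SC_TH the median depth went up with age, with 4.45e+06 reads in the 3w group, 8.64e+06 in the 5m group and 1.23e+07 in the 18m group. Over the same ages it was 5.96e+06, 1.03e+07 and 1.08e+07 in SC_SYN and 3.16e+06, 3.21e+06 and 5.79e+06 in input_SYN. In input_TH it was 1.03e+07, 1.08e+07 and 1.14e+07. Levels are given as CPM (counts scaled to a common library total) after TMM scaling over all 48 libraries, and fold changes come from edgeR's quasi-likelihood test with Benjamini-Hochberg adjustment over all genes tested. The summed level of 5 excitatory neuron markers lay between 1584 and 2447 CPM in input_TH and between 3723 and 5802 CPM in input_SYN, and none of the 5 was at 0 throughout a group. That of 6 astrocyte markers lay between 3514 and 5153 CPM and between 12110 and 15824 CPM. The labels give no litter, cage or day for the mice, so p-values measure the spread between the libraries of these mice. The main fits hold no term for the mouse. Where a fit holds several libraries of a mouse, they were treated as independent. A block that pairs them was run as an alternative. The sequencing run of each library is not given in the labels.

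The 9 RNAs together took 2.39% ± 0.0905 (SD, n = 4) of all counts in input_TH at 3w, 2.43% ± 0.0157 at 5m and 2.15% ± 0.108 at 18m. In SC_TH their share was 1.51% ± 0.204 at 3w, 1.12% ± 0.225 at 5m and 0.692% ± 0.0538 at 18m. The highest SC_TH library, at 1.69%, lay below the lowest input_TH library, at 2.05%. In input_SYN the share was 0.212% ± 0.0604, 0.231% ± 0.0290 and 0.267% ± 0.0788, and in SC_SYN it was 0.104% ± 0.0237, 0.123% ± 0.0436 and 0.237% ± 0.0548 at 3w, 5m and 18m. The 4 SC_SYN libraries at 18m, between 0.191% and 0.309%, all lay above the 8 younger ones, whose highest was 0.185%. Malat1 alone made up 1.68% ± 0.0351 of the counts of input_TH at 5m and 0.201% ± 0.0549 of those of SC_SYN at 18m.

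**Figure D1:**
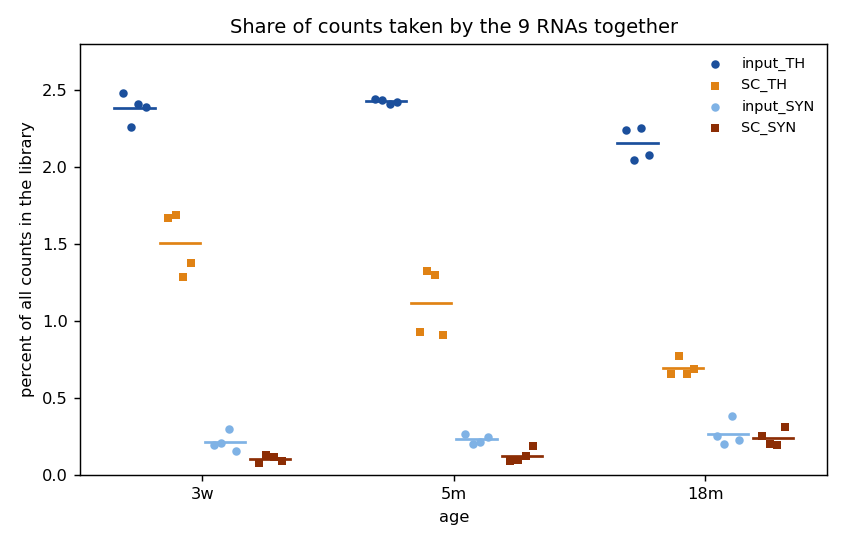
Percent of all counts in a library (y axis) that fell on the 9 RNAs together, by age (x axis) and fraction; points are libraries and bars are means of 4. The lowest input_TH library was at 2.05%, and the share went down in SC_TH from 1.51% at 3w to 0.692% at 18m. Among the SC_SYN groups it was highest at 18m (0.237%).

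Ordered by level per kilobase of exonic length in input_TH at 5m, Malat1 stood far above the others with 2024 ± 33.6 CPM per kb (SD, n = 4). Meg3 followed with 186 ± 12.0, Snhg11 with 160 ± 9.47, Miat with 48.0 ± 2.76 and Rian with 27.3 ± 2.28 CPM per kb. The lower levels were those of Mirg (9.72 ± 0.67), Lncpint (6.21 ± 0.21), Neat1 (5.13 ± 1.17) and Kcnq1ot1 (4.11 ± 0.32 CPM per kb). Within 1 SD, Lncpint and Neat1 overlapped, as did Neat1 and Kcnq1ot1, and no other neighbours did. The length is the union of all annotated exons, which for Neat1 and Kcnq1ot1 includes stretches that shorter isoforms lack. It also includes bases shared with other genes, up to 30.4% in Miat, where reads may be missing. In SC_SYN at 18m the order was Malat1 (337 ± 82.3 CPM per kb), Meg3 (11.4 ± 2.16), Snhg11 (8.50 ± 2.07), Miat (3.45 ± 0.54), Rian (3.13 ± 0.087), Mirg (1.51 ± 0.39), Lncpint (0.482 ± 0.048), Kcnq1ot1 (0.332 ± 0.12) and Neat1 (0.301 ± 0.091). There, Meg3 overlapped Snhg11, Miat overlapped Rian, and Kcnq1ot1 overlapped both Lncpint and Neat1.

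**Figure D2:**
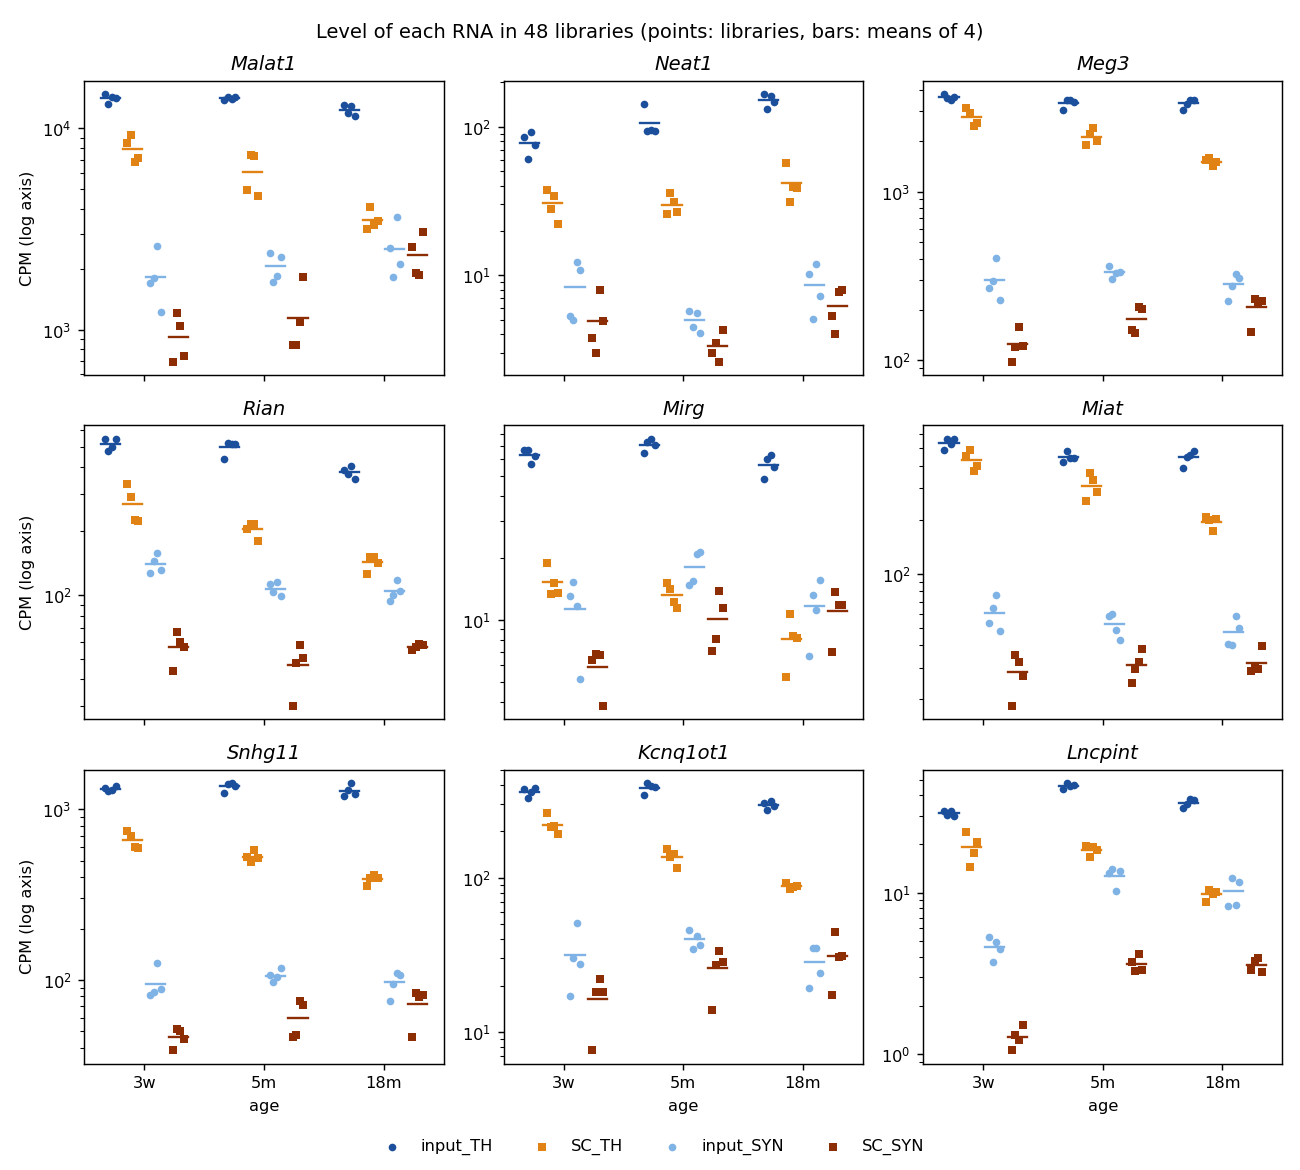
Level of each RNA in CPM (log axis) by age (x axis) in input_TH, SC_TH, input_SYN and SC_SYN; points are the 48 libraries and bars are means of 4. Within each age the input_TH libraries were the highest for every RNA, and for Mirg the SC_TH, input_SYN and SC_SYN libraries shared a range of 3.81 to 21.4 CPM.

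The first comparison asks how far these RNAs were depleted from synaptosomes before the cushion. All 9 were lower in input_SYN than in input_TH at each age, between 3.17-fold (Lncpint at 18m) and 19.2-fold (Neat1 at 5m). Malat1 was at 13889, 14329, 13977 and 14341 CPM in the 4 input_TH libraries at 5m and at 2398, 1721, 1860 and 2297 CPM in the input_SYN libraries of the same mice, a log2 fold change of -2.61 (SE 0.17, adjusted p = 1.51e-13). Neat1 was at 143, 93.3, 95.3 and 94.2 CPM in input_TH at 5m and at 5.78, 4.52, 5.55 and 4.09 CPM in input_SYN. Its log2 fold change of -4.26 (SE 0.25, adjusted p = 6.82e-15) was the lowest of the 9, but rested on 10 to 18 reads per SYN library. Within the imprinted cluster, the log2 fold changes of Meg3 were -3.48 at 3w, -3.19 at 5m and -3.46 at 18m. Those of Rian were -1.76, -2.06 and -1.77, and those of Mirg -2.23, -1.81 and -2.12. Rian and Mirg thus had smaller decreases than Meg3 at each age, a difference between genes that was not tested. Over the 3 ages Snhg11 lay between -3.69 and -3.52, Kcnq1ot1 between -3.48 and -3.10 and Miat between -3.15 and -2.94. Lncpint went from -2.62 (SE 0.15) at 3w to -1.68 (SE 0.12) at 5m and -1.66 (SE 0.11) at 18m.

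For this comparison the share of all genes tested that were called lower in input_SYN was 39.3% at 3w, 40.1% at 5m and 39.4% at 18m, beside 9 of 9 members. The median log2 fold change of the members was -3.02, -2.94 and -3.15, and that of all genes -0.18, -0.18 and -0.12. Library size in place of TMM moved the median of all genes by -0.58, -0.65 and -0.58 in input and by -0.55, -0.59 and -0.53 in SC, which would make every SYN over TH value lower by about that much. The 6 astrocyte markers moved the other way, with 6 of 6 higher in input_SYN at each age, where 31.7%, 32.6% and 32.9% of all genes tested were called higher, and a median log2 fold change of 1.64, 1.67 and 1.86. The 5 endothelial markers were lower, 5 of 5 at each age, with medians of -2.46, -3.90 and -2.86, and a summed level between 133 and 217 CPM in input_TH and between 8.11 and 18.0 CPM in input_SYN. The part of such changes in cell type content in the members' values was not tested. In bulk RNA, fewer cells or endings of a type and less RNA per cell cannot be told apart.

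The second comparison asks how high the level of each RNA in the ribosome pellet of whole cortex was relative to its input, here called carry-over. In TH this ratio also holds any loss at the clearing spin before the cushion. In TH, 8 of 9 members were lower in SC than in input at 3w, and 9 of 9 were at 5m and at 18m. The share of all genes tested that were called lower was 26.6%, 32.2% and 32.7%. The median log2 fold change of the members was -0.71 at 3w, -1.23 at 5m and -1.70 at 18m, against -0.05, -0.05 and -0.01 for all genes. Mirg had the lowest carry-over of the 9 at each age. It was at 66.4, 66.4, 57.0 and 62.2 CPM in input_TH at 3w and at 18.9, 13.4, 14.99 and 13.5 CPM in SC_TH, a log2 fold change of -1.92 (SE 0.13, adjusted p = 3.85e-12). At 18m it was at 48.2, 60.4, 63.2 and 55.1 CPM in input_TH and at 5.24, 10.6, 8.34 and 8.16 CPM in SC_TH, a log2 fold change of -2.76 (SE 0.13, adjusted p = 7.28e-16). The lowest input value was thus far above the highest pellet value. Meg3, of the same cluster, was much closer to its input. Its SC_TH libraries at 3w held 3159, 2928, 2442 and 2553 CPM beside 3785, 3611, 3525 and 3660 CPM in input_TH, a log2 fold change of -0.27 (SE 0.078, adjusted p = 0.00445). At 18m Meg3 stood at 1544, 1580, 1419 and 1499 CPM in SC_TH beside 3056, 3330, 3503 and 3485 CPM in input_TH, a log2 fold change of -1.09 (SE 0.079, adjusted p = 4.16e-12). The third RNA of the cluster, Rian, lay between them with -0.82, -1.20 and -1.36 at the 3 ages.

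Malat1 in the TH pellets was at 8476, 9300, 6812 and 7153 CPM at 3w, at 4936, 7417, 7281 and 4605 CPM at 5m and at 3178, 4078, 3325 and 3458 CPM at 18m. In the individual mice its pellet CPM was 47.5% to 70.5% of its input CPM at 3w and 24.4% to 34.3% at 18m. Such ratios are relative to the other RNA of each library and do not give the amount that pelleted. The log2 fold changes of Malat1 from input to SC were -0.71 (SE 0.12, adjusted p = 1.45e-05), -1.13 (SE 0.12, adjusted p = 6.6e-09) and -1.76 (SE 0.12, adjusted p = 1.78e-12). Neat1, the other RNA of a nuclear body, was at -1.22, -1.77 and -1.81. Miat was nearest to its input at 3w, with a log2 fold change of -0.20 (SE 0.10, adjusted p = 0.0902), and was at -0.44 at 5m and -1.13 at 18m. With the mouse as a block, which pairs the libraries of each animal, Miat also passed at 3w, at -0.21 (adjusted p = 0.0497). Snhg11 was at -0.88, -1.28 and -1.67, Kcnq1ot1 at -0.59, -1.40 and -1.70, and Lncpint at -0.59, -1.23 and -1.83.

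The change of this carry-over with age was tested as an interaction within TH. All 9 estimates were negative in both steps, 5m minus 3w and 18m minus 5m, and those that passed were 3 and 5 of 9, with 2.33% and 1.78% of all genes tested called in either direction. From 3w to 5m, carry-over into the TH pellet fell for Kcnq1ot1 by 0.81 (SE 0.11, adjusted p = 0.00206), for Lncpint by 0.64 (SE 0.135, adjusted p = 0.0156) and for Snhg11 by 0.40 (SE 0.099, adjusted p = 0.032) on the log2 scale. From 5m to 18m it fell for Miat by 0.69 (adjusted p = 0.0125), Malat1 by 0.63 (adjusted p = 0.0479), Lncpint by 0.60 (adjusted p = 0.0178), Meg3 by 0.52 (adjusted p = 0.0169) and Snhg11 by 0.39 (adjusted p = 0.041). None of these calls held with all 48 libraries in a single fit, where 0 members passed in either step (adjusted p between 0.117 and 0.447 for the 3 and between 0.0772 and 0.501 for the 5). Scaling by library size left 3 of the 5 at 18m, without Malat1 (adjusted p = 0.064) and Snhg11 (adjusted p = 0.0605). Without mouse 193, 197 or 198 none of the 5 passed at 18m against 5m (adjusted p between 0.0628 and 0.201), without mouse 192 the number was 2, without mouse 194 or 196 it was 3, and without mouse 195 it was 4. At 5m against 3w the number was 1 without mouse 187 or 194, when only Kcnq1ot1 passed, and 2 without mouse 188 or 191. With the block, Malat1 was at -0.60 (adjusted p = 0.05) at 18m against 5m and no longer passed. The depth of SC_TH went up with age in the same steps, as given above, and its part in these values was not tested.

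**Figure D3:**
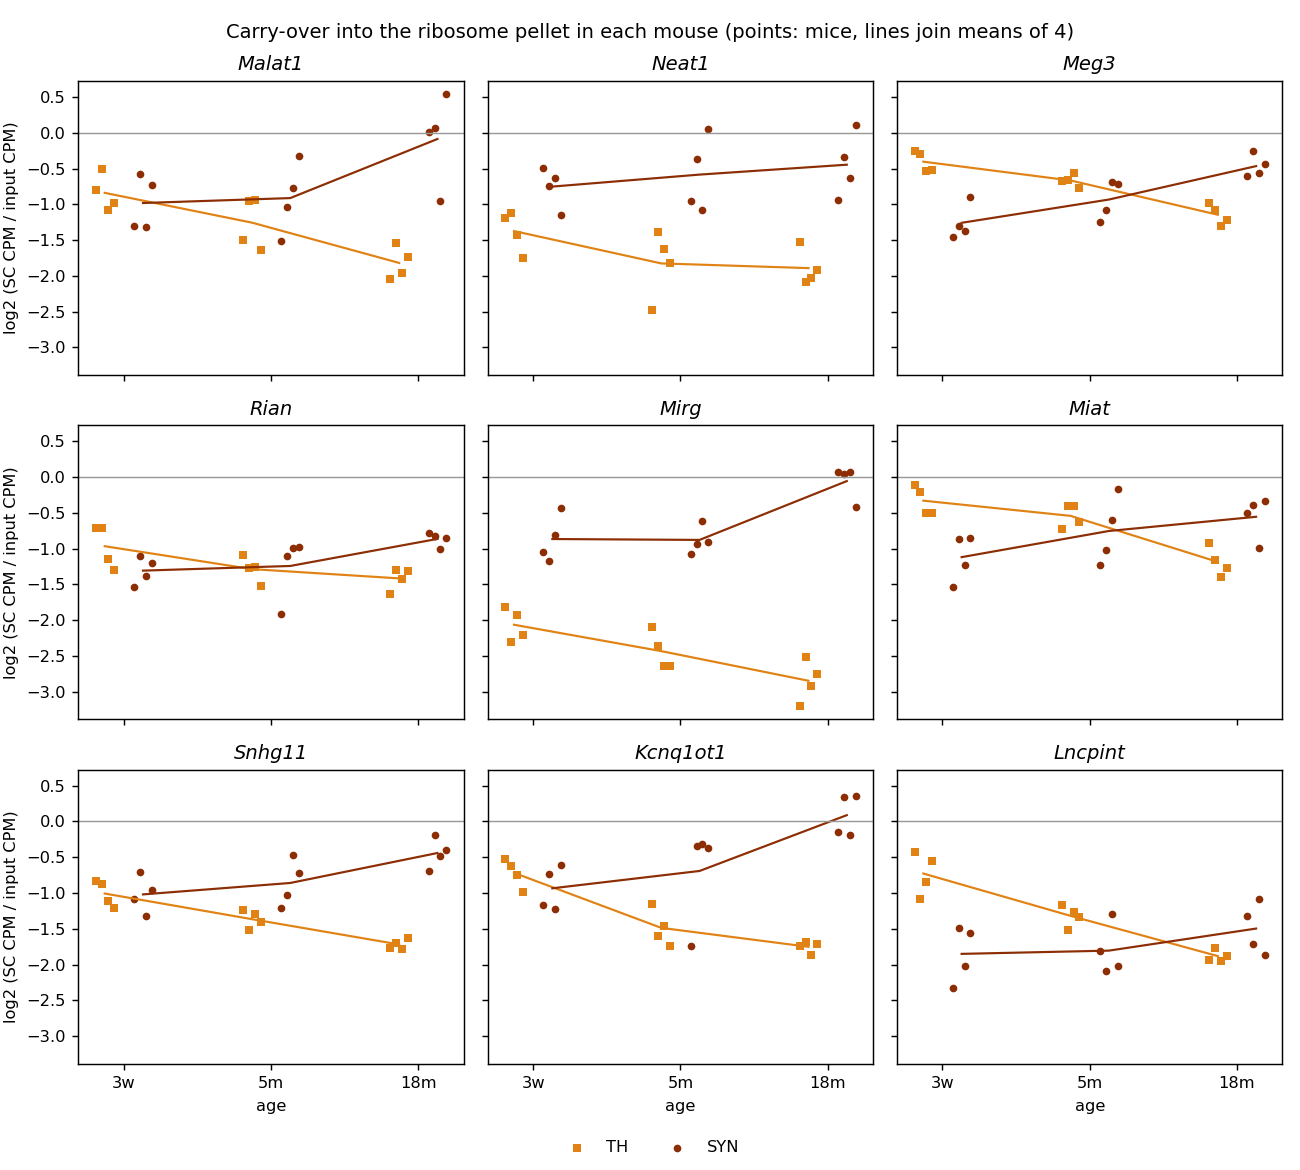
Carry-over as log2 of SC over input CPM (y axis) in each mouse by age (x axis), in TH and in SYN; points are mice and lines join the means of 4, with 0 marking equal levels. The TH means were lower at 18m than at 3w for all 9 RNAs, and the SYN means were higher, with Malat1 (-0.09), Mirg (-0.06) and Kcnq1ot1 (0.09) near 0 at 18m.

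In synaptosomes no change of carry-over between ages was called for any member, as given below. Whether its change with age differed between SYN and TH was not tested. The members called lower in SC_SYN than in input_SYN were 7 of 9 at 3w, 7 of 9 at 5m and 3 of 9 at 18m, where 9.5%, 10.3% and 6.7% of all genes tested were called lower. Their median log2 fold change was -1.06, -0.90 and -0.46, against 0.01, 0.01 and 0.02 for all genes. Malat1 was at 1714, 1805, 2597 and 1221 CPM in input_SYN at 3w and at 695, 1207, 1046 and 737 CPM in SC_SYN, a log2 fold change of -1.04 (SE 0.26, adjusted p = 0.00774). At 18m it was at 2553, 1833, 3624 and 2113 CPM in input_SYN and at 2579, 1912, 1868 and 3067 CPM in SC_SYN, a log2 fold change of -0.14 (SE 0.26, adjusted p = 0.805). The groups overlapped at 18m, and the pellet level was above the input level in 3 of 4 mice. The remaining animal, mouse 197, decided the sign, since the Malat1 value without it was 0.22 (adjusted p = 0.689). Mirg was likewise lower in the pellet at 3w (-1.05, SE 0.31, adjusted p = 0.0182) and at 5m (-0.90, SE 0.27, adjusted p = 0.0183). At 18m it was at 6.63, 13.2, 11.1 and 15.7 CPM in input_SYN and at 6.98, 13.6, 11.7 and 11.8 CPM in SC_SYN, a log2 fold change of -0.11 (SE 0.26, adjusted p = 0.852), which was 0.04 without mouse 198. Kcnq1ot1 was at 19.4, 35.2, 35.0 and 24.2 CPM in input_SYN at 18m and at 17.5, 44.5, 30.7 and 31.0 CPM in SC_SYN, with a log2 fold change of 0.12 (SE 0.31, adjusted p = 0.864).

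The members that passed at 18m were Lncpint, Rian and Miat. Lncpint had the lowest carry-over in SYN at 3 ages out of 3, with -1.86 (SE 0.26, adjusted p = 2.75e-05) at 3w, -1.87 (SE 0.18, adjusted p = 1.17e-07) at 5m and -1.54 (SE 0.17, adjusted p = 2.57e-06) at 18m. At 3w its SC_SYN libraries held 5, 7, 6 and 8 reads and its input_SYN libraries 20, 14, 8 and 7, so these values carry a large counting error. Rian was at -1.33, -1.26 and -0.89 and passed at each age. Miat was at -1.13, -0.80 and -0.59, and the call at 18m (adjusted p = 0.0393) was lost without mouse 195, 196 or 197 (adjusted p between 0.0885 and 0.229). The 5m calls were lost for Malat1 without mouse 191, 192 or 193, for Mirg without 191, 192 or 194 and for Miat without 191 (adjusted p between 0.0521 and 0.147), and 4 members passed without mouse 191. At 3w the call was lost for Malat1 without mouse 189 (adjusted p = 0.0551) and for Mirg without mouse 187 or 188 (adjusted p = 0.0748 and 0.097). Meg3 was at -1.31 and -0.98 at 3w and 5m, and at -0.49 (SE 0.17, adjusted p = 0.0668) at 18m. Snhg11 was at -1.06 and -0.89, and at -0.44 (SE 0.18, adjusted p = 0.118) at 18m. Neat1, with 10 to 98 reads per SYN library, did not pass at any age (-0.68, -0.61 and -0.46).

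Pairing the libraries of each mouse as a block brought more calls in SYN. With the block, 9 members passed at 3w, 8 at 5m and 5 at 18m. The added calls were Neat1 (-0.79, adjusted p = 0.0423) and Kcnq1ot1 (-0.97, adjusted p = 0.00747) at 3w, Kcnq1ot1 (-0.73, adjusted p = 0.0191) at 5m, and Meg3 (-0.49, adjusted p = 0.011) and Snhg11 (-0.46, adjusted p = 0.0308) at 18m. The change of carry-over with age within SYN was not called for any member. In edgeR's test 0 of 9 passed in either step, 5m minus 3w or 18m minus 5m, with 0% of all genes tested called. An unadjusted p under 0.05 was found for 0 and 2 members, beside 473 and 393 of 14301 genes tested. DESeq2 called 0 members. All 9 estimates at 18m against 5m were positive, from 0.15 to 0.80.

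The carry-over was then compared directly between SYN and TH in a model of all 48 libraries. At 3w, the members that differed were Meg3, Miat and Lncpint, with SYN minus TH values of -0.998 (SE 0.206, adjusted p = 0.000508), -0.89 (SE 0.22, adjusted p = 0.00335) and -1.25 (SE 0.28, adjusted p = 0.00529), so they were carried over less in SYN. Mirg, at 0.87 (adjusted p = 0.0726), passed in the opposite direction with the mouse as a block (0.92, adjusted p = 0.0211), in DESeq2 (adjusted p = 0.0233), with library size (adjusted p = 0.0386) and without the filter (adjusted p = 0.0181). At 5m, Mirg (1.48, SE 0.29, adjusted p = 0.000195) and Neat1 (1.19, SE 0.41, adjusted p = 0.0314) were carried over more in SYN and Lncpint less (-0.62, SE 0.18, adjusted p = 0.012). At 18m, 8 of 9 were carried over more in SYN, led by Mirg (2.67, SE 0.29, adjusted p = 7.62e-09), Kcnq1ot1 (1.86, SE 0.31, adjusted p = 1.38e-05), Malat1 (1.65, SE 0.31, adjusted p = 7.37e-05), Neat1 (1.37, SE 0.34, adjusted p = 0.00222) and Snhg11 (1.25, SE 0.20, adjusted p = 1.09e-05). Meg3 (0.63), Miat (0.56) and Rian (0.48) followed with adjusted p of 0.0194, 0.0473 and 0.0449, and Lncpint, at 0.30 (adjusted p = 0.242), did not pass. The share of all genes tested that were called in either direction was 17.7% at 3w, 23% at 5m and 24.7% at 18m. The median of the members was -0.29, 0.26 and 1.25 at the 3 ages, against -0.03, 0.00 and -0.01 for all genes.

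Several of these calls depended on single animals. At 18m, Rian and Miat lost theirs whichever 18m mouse was left out (adjusted p between 0.0505 and 0.209), and Meg3 without mouse 197 or 198 (adjusted p = 0.0703 and 0.0678), while the other 5 passed each time. At 5m, Lncpint lost its call without mouse 191, 192 or 194 (adjusted p between 0.0658 and 0.0879) and without the filter on low counts (-0.51, adjusted p = 0.156), and Neat1 without the same mice (adjusted p between 0.0531 and 0.193), so that 1 member passed without 192 or 194, and without 191 Mirg and Kcnq1ot1 did (Kcnq1ot1 at 1.12, adjusted p = 0.0167). At 3w, Lncpint did so without mouse 187 (-0.90, adjusted p = 0.159).

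The level of each RNA in the SYN pellets was compared with that in the TH pellets, which asks how many of these RNAs reach the SYN pellet relative to that of whole cortex. At 3w, 9 of 9 members were lower in SC_SYN than in SC_TH, from -1.32 for Mirg to -4.44 for Meg3, with 32.4% of all genes tested called lower. At 5m, 8 of 9 were lower, with 35.8% of all genes called lower, and Mirg was at -0.32 (SE 0.21, adjusted p = 0.185). At 18m, 7 of 9 were lower and 1, Mirg, was higher, with 32.2% of all genes called lower and 29.9% called higher. The median of the members was -3.70, -2.34 and -1.43, and that of all genes -0.04, -0.09 and -0.07. Malat1 at 18m, with SC_TH values between 3178 and 4078 CPM and SC_SYN values between 1868 and 3067 CPM, had a log2 fold change of -0.51 (SE 0.23, adjusted p = 0.0546), after -3.06 at 3w and -2.34 at 5m. It passed with the mouse as a block (-0.54, adjusted p = 0.0482), and without mouse 198 (-0.69, adjusted p = 0.0267). Mirg at 18m was at 5.24, 10.6, 8.34 and 8.16 CPM in SC_TH and at 6.98, 13.6, 11.7 and 11.8 CPM in SC_SYN, higher in 4 of 4 mice although the groups overlapped. Its log2 fold change was 0.54 (SE 0.21, adjusted p = 0.0331). The Mirg call was lost without mouse 196, 197 or 198 (adjusted p between 0.0548 and 0.0917) and in DESeq2 (adjusted p = 0.0546), and the value was 0.01 (adjusted p = 0.984) with library size in place of TMM. Meg3 stayed the most unequal of the RNAs at 18m, at -2.82 (SE 0.15, adjusted p = 3.03e-13), with Neat1 at -2.71, Miat at -2.56, Snhg11 at -2.37, Kcnq1ot1 at -1.43, Lncpint at -1.36 and Rian at -1.26.

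**Figure D4:**
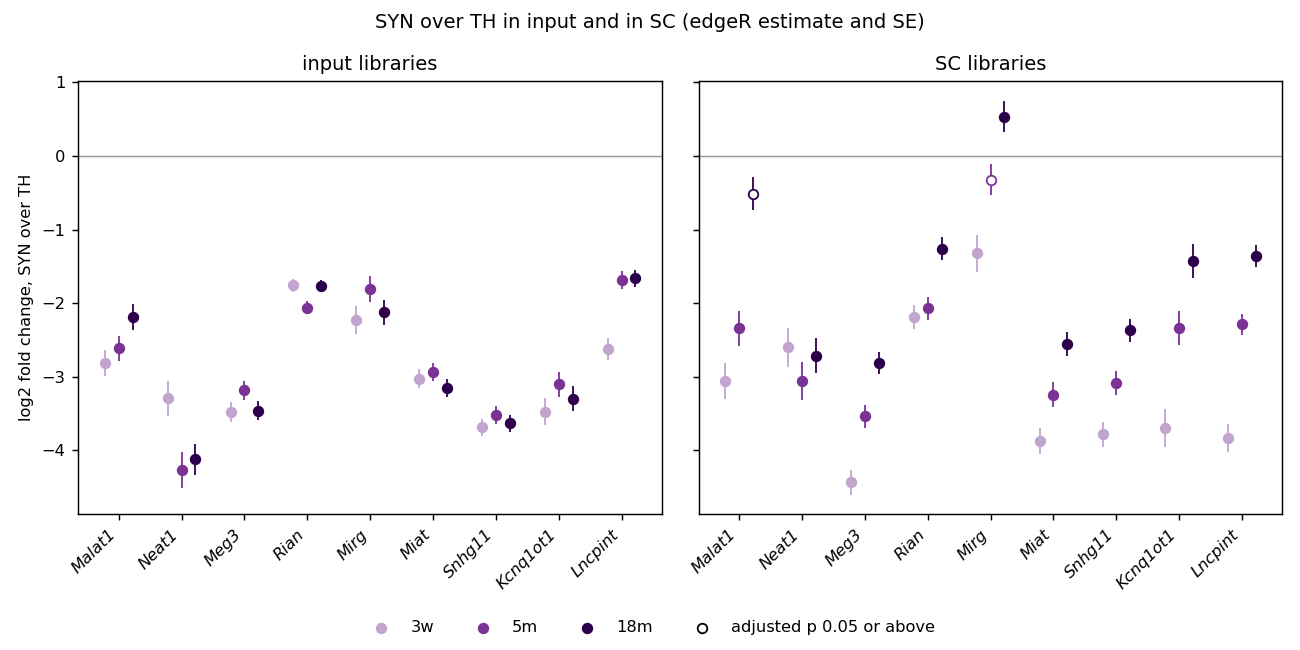
Log2 fold change of SYN over TH (y axis) for each RNA (x axis) in input libraries (left) and SC libraries (right) at 3 ages; points are edgeR estimates and bars their SE, and open points did not pass an adjusted p of 0.05. Input values stayed between -4.26 and -1.66, while SC values went up with age for 8 of 9 RNAs, all but Neat1, reaching -0.51 for Malat1 and 0.54 for Mirg at 18m.

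The difference of these age changes between SYN and TH was tested as an interaction. In SC, Lncpint passed at 5m against 3w with 1.54 (SE 0.26, adjusted p = 0.0314), with 0.0301% of all genes tested called, and lost the call without mouse 187, 190, 191, 192, 193 or 194 (adjusted p between 0.0681 and 0.245). With DESeq2 the number of members that passed was 3, and without mouse 189 it was 2. At 18m against 5m in SC, 0 of 9 passed in edgeR, where 0% of all genes did. All 9 estimates were positive there (0.35 to 1.83, highest for Malat1). An unadjusted p under 0.05 was found for 8 members and for 2855 of 16630 genes tested. DESeq2 called 3 members. Without mouse 194, 1 passed in edgeR. In input, 0 of 9 passed in both steps in edgeR and in DESeq2, with 0.0224% and 2.42% of all genes called. An unadjusted p under 0.05 was found for 3 and 1 members, beside 1437 and 3168 of 17860 genes tested.

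The levels were also compared between ages within each fraction. In input_TH at 5m against 3w, Lncpint, with a mean of 31.1 ± 1.09 CPM at 3w and of 45.9 ± 1.57 CPM at 5m (SD, n = 4), rose by 0.55 on the log2 scale (SE 0.055, adjusted p = 5.2e-06) and Miat, with a mean of 538 ± 35.1 CPM at 3w and of 446 ± 25.6 CPM at 5m, fell by 0.28 on the log2 scale (adjusted p = 0.0108). These were 2 of 9 members, with 11.8% of all genes tested called in either direction. Neat1 was at 85.5, 60.5, 91.8 and 75.3 CPM at 3w and at 143, 93.3, 95.3 and 94.2 CPM at 5m, which gave a log2 fold change of 0.44 (SE 0.14, adjusted p = 0.0524) that passed without mouse 189, 192 or 194 (adjusted p between 0.0418 and 0.049). At 18m against 5m, 6 of 9 passed, with 15.5% of all genes called. Neat1 rose to 165, 132, 161 and 147 CPM at 18m, which gave a log2 fold change of 0.53 (SE 0.14, adjusted p = 0.0179), and the highest library at 5m overlapped that group. Kcnq1ot1 (-0.33), Rian (-0.36), Lncpint (-0.32), Mirg (-0.29) and Malat1 (-0.16) fell, with adjusted p between 0.00271 and 0.0324. Without single mice the Malat1 call was lost in 5 cases (192, 193, 194, 196 and 198, adjusted p between 0.0549 and 0.111), that of Mirg without 192, 193 or 198 and that of Neat1 without 192, 193 or 194 (adjusted p between 0.0513 and 0.0582), which left 3 members without 192 or 193. Meg3 (0.02), Miat (0.03) and Snhg11 (-0.05) did not pass. With all 48 libraries in a single fit, none of the 6 calls held (adjusted p between 0.0842 and 0.751), and at 5m against 3w Lncpint alone passed, with Miat at -0.27 (adjusted p = 0.382). Without the filter on low counts Malat1 lost its call (adjusted p = 0.16).

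In SC_TH the differences between ages were mostly decreases. At 5m against 3w, Kcnq1ot1 (-0.71, SE 0.092, adjusted p = 0.000113), Miat (-0.50), Rian (-0.41), Meg3 (-0.40) and Snhg11 (-0.34) fell, 5 of 9 with 17.9% of all genes tested called. The Rian call (adjusted p = 0.0195) was lost without mouse 187, 188 or 194 (adjusted p between 0.0624 and 0.0834). With all 48 libraries in a single fit 3 passed, without Meg3 (adjusted p = 0.0574) and Snhg11 (adjusted p = 0.0988). Malat1, at -0.41 (adjusted p = 0.0598), passed without mouse 189, 192 or 193 (adjusted p between 0.00965 and 0.0338). At 18m against 5m, 8 of 9 fell, where 2.17% of all genes tested were called in either direction. The decreases were -0.92 for Lncpint (SE 0.13, adjusted p = 0.00292), -0.79 for Malat1 (SE 0.15, adjusted p = 0.0111), -0.71 for Mirg (adjusted p = 0.0384), -0.66 for Miat (adjusted p = 0.00899), -0.64 for Kcnq1ot1 (adjusted p = 0.00302), -0.52 for Rian (adjusted p = 0.0236), -0.49 for Meg3 (adjusted p = 0.0107) and -0.43 for Snhg11 (adjusted p = 0.0108). Lncpint was at 19.5, 16.6, 19.1 and 18.3 CPM at 5m and at 8.73, 10.3, 9.80 and 10.1 CPM at 18m, without overlap. Neat1, the only member whose estimate was positive, was at 0.50 (SE 0.17, adjusted p = 0.144). The calls of Mirg and Rian were lost in 6 and 5 of the 8 cases with 1 mouse left out, and that of Malat1 without mouse 193 (adjusted p = 0.05), which left 5 members. With all 48 libraries in a single fit, Snhg11 (adjusted p = 0.0837) and Kcnq1ot1 (adjusted p = 0.0819) lost theirs. The depth of SC_TH differed between the ages, and its part in these values was not tested.

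Within SYN, where each fraction was fitted alone, Lncpint was the member called between ages in edgeR. In input_SYN at 5m against 3w it rose from 5.33, 3.70, 4.93 and 4.50 CPM to 13.2, 14.0, 10.2 and 13.5 CPM (log2 fold change 1.46, SE 0.24, adjusted p = 0.00159), 1 of 9 with 3.22% of all genes tested called, and DESeq2 also called Rian (-0.39, adjusted p = 0.0229). In SC_SYN it rose over the same ages from 1.06, 1.32, 1.22 and 1.52 CPM to 3.75, 3.28, 4.17 and 3.34 CPM (log2 fold change 1.45, SE 0.23, adjusted p = 0.0021), 1 of 9 with 8.05% of all genes called. With all 48 libraries in a single fit, Meg3 (0.52, adjusted p = 0.0102), Mirg (0.80, adjusted p = 0.0189) and Kcnq1ot1 (0.67, adjusted p = 0.0451) passed in SC_SYN as well. The Lncpint groups did not overlap in either fraction, and the 3w values rest on 5 to 20 reads per library. At 18m against 5m, 0 of 9 passed in input_SYN in edgeR and in DESeq2, with 0.139% of all genes called. An unadjusted p under 0.05 was found there for 1 member and for 1214 of 12975 genes tested. In SC_SYN 0 of 9 passed in edgeR, with 0.014% of all genes called. An unadjusted p under 0.05 was found for 2 members and for 2474 of 14240 genes tested. DESeq2 called 1 member. That member was Malat1, which went from 839, 838, 1087 and 1838 CPM at 5m to 2579, 1912, 1868 and 3067 CPM at 18m without overlap. Its log2 fold change was 1.05 (SE 0.26) with an adjusted p of 0.16 in edgeR and of 0.0159 in DESeq2. It also passed with all 48 libraries in a single edgeR fit (adjusted p = 0.00273) and without the filter (adjusted p = 0.0217). The markers of oligodendrocytes also moved with age, with 6 of 6 lower at 5m than at 3w in each of the 4 fractions. Of all genes tested, 11.8% in input_TH, 17.9% in SC_TH, 3.22% in input_SYN and 8.05% in SC_SYN were called in either direction. These markers had a median of -1.37 in input_TH, -1.44 in input_SYN and -1.24 in SC_SYN. Their part in the members' values was not tested, nor was that of depth, which differed between the ages in both SYN fractions.

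In TH, 26.6%, 32.2% and 32.7% of all genes tested were called lower in SC than in input at 3w, 5m and 18m. Of 13 other noncoding RNAs described as nuclear that were tested there, 11, 11 and 12 were lower, with medians of -0.88, -0.98 and -1.35. At 5m the lowest were Rpph1, the RNA of RNase P, at -5.88 and Rn7sk, which holds back the elongation factor P-TEFb, at -5.50. Tug1 (-0.52) and Peg13 (-0.07, which did not pass) were the highest. In SYN, 4, 7 and 4 of 10 tested were lower in SC, beside 9.5%, 10.3% and 6.7% of all genes tested. The medians of the 10 were -0.93, -0.64 and -0.54. Among 11 noncoding RNAs described as cytoplasmic or ribosome associated, 11 of 11 were lower in SC_TH at each age (medians -0.96, -1.31 and -1.18), led at 5m by the signal recognition particle RNAs Rn7s2 (-4.89) and Rn7s1 (-4.87). In input_SYN against input_TH, 4, 7 and 3 of the 11 were higher and 1, 2 and 1 lower. Of all genes tested, 31.7%, 32.6% and 32.9% were called higher there and 39.3%, 40.1% and 39.4% lower. Of 14 abundant housekeeping mRNAs, 13 were higher in SC_TH than in input_TH at each age, with medians of 0.82, 0.96 and 1.06, where 26.1%, 29.9% and 31.3% of all genes tested were called higher. In SYN, 9, 9 and 10 of 14 were higher in SC, with medians of 0.44, 0.46 and 0.44, where 9.04%, 9.66% and 5.88% of all genes tested were.

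The mRNAs of proteins that work with these RNAs were counted in the same way. Of 13 paraspeckle protein genes, 10, 8 and 9 were higher in SC_TH than in input_TH and 0, 1 and 1 lower, beside 26.1%, 29.9% and 31.3% of all genes called higher. The higher ones include Nono (1.11 at 5m), whose protein binds Neat1. Of 11 genes for speckle proteins, 3, 2 and 1 were higher and 6, 5 and 6 lower, beside the 26.6%, 32.2% and 32.7% of all genes called lower, and at 5m the lowest were Srrm2 (-0.85) and Son (-0.77), the core proteins of the speckles. All 11 were lower in input_SYN than in input_TH at each age, with medians of -1.12, -0.95 and -0.85. In that comparison 39.3%, 40.1% and 39.4% of all genes tested were called lower. Of 9 genes of chromatin silencing, 3, 2 and 3 were higher in SC_TH and 1, 2 and 3 lower. Of all genes tested, 26.1%, 29.9% and 31.3% were called higher there and 26.6%, 32.2% and 32.7% lower. Ezh2, the enzyme of the Polycomb complex, was at -0.26 (adjusted p = 0.167) at 3w and was lower at 5m (-1.41) and 18m (-1.30), while at 5m Dnmt1 (0.37), which maintains DNA methylation, and Rbbp4 (0.20) were higher. Of 7 protein-coding genes tested in the imprinted domains of Meg3 and Kcnq1ot1, 5, 5 and 4 were higher in input_SYN and 1 was lower at each age. Of all genes tested, 31.7%, 32.6% and 32.9% were called higher there and 39.3%, 40.1% and 39.4% lower. Dlk1, which is expressed from the paternal copy of the Meg3 domain, was higher at each age (1.60, 2.11 and 1.67). Kcnq1, which Kcnq1ot1 overlaps on the other strand, was lower in SC_TH than in input_TH at 5m (-1.04, adjusted p = 0.0443) and did not pass at 3w (-0.86, adjusted p = 0.239) or 18m (-1.02, adjusted p = 0.0844).

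Across all 48 libraries, the 5 named genes whose log2 CPM was most like the mean of the 9 standardised RNAs were Zfp488 (Pearson r = 0.989), Mir124a-1hg (0.985), Tmem72 (0.985), Slc38a6 (0.978) and Hsd3b2 (0.977), out of 9120 genes searched. These correlations are descriptions, and the libraries share the large difference between TH and SYN. Within a fraction, over 12 libraries, the pairwise correlations of the 9 RNAs, as deviations from the mean of each age, had a median of 0.395 in input_TH, 0.348 in SC_TH, 0.399 in input_SYN and 0.395 in SC_SYN, and 25, 30, 30 and 32 of 36 pairs were positive. The pairs share libraries and scaling, and no test was made of them.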

How the data were processed

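The deposited files were raw gene counts for 48 libraries, which the authors made from rRNA-depleted, directional libraries with TopHat2 2.1 (GRCm38) and featureCounts without strand. Demultiplexing used bcl2fastq 2.20.0.422. Whether the molecular identifiers of the adaptors were used is not given in the sources used here. All tests used the counts as deposited and edgeR 4.0.16 under R 4.3.3, with TMM scaling, its filter on low counts, the quasi-likelihood F test and Benjamini-Hochberg adjustment over all genes tested (threshold 0.05), and SE was taken as the fold change over the root of F. The scripts were tested on simulated data. Symbols came from GENCODE M21, which matched 48144 of 48526 identifiers, and unmatched rows held 0.0596% of counts. The 9 members and all gene lists were chosen with earlier results of these data known. All members were named. Genes named from the lists were among the 2 highest or 2 lowest of a list in a comparison, and not all such genes are named. Same-numbered libraries came from the same mouse, and their deviations from group means correlated with medians between -0.0287 and 0.121 over 6 pairs of fractions. Depth ran from 1780267 to 18590040 reads. Alternatives were library size scaling, DESeq2 1.42.0, no filter, no mitochondrially encoded genes, the mouse as a block, all 48 libraries in a single fit, and each mouse left out. Shares of all genes are those of the main fits, and none is given for the alternatives.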

Additional observations from a re-analysis of the deposited data

Results flagged for a closer look

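In 6 of 120 groups of 4 libraries tested, a library stood apart by Dixon's criterion, the number chance gives (6). In input_TH at 5m, mouse 191 had 143 CPM of Neat1 beside 93.3 to 95.3 CPM in the others (gap over range 0.96) and 436 CPM of Rian beside 516 to 524 CPM (0.913). In SC_SYN at 18m, mouse 195 had 148 CPM of Meg3 beside 220 to 230 CPM (0.884) and 46.1 CPM of Snhg11 beside 79.0 to 83.4 CPM (0.88). In SC_SYN at 3w, mouse 190 had 3.81 CPM of Mirg beside 6.34 to 6.77 CPM (0.853), and in input_SYN at 3w mouse 189 had 125 CPM of Snhg11 beside 81.8 to 88.2 CPM (0.853).

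Carry-over into the pellet differed between SYN and TH by edgeR's test of the difference itself. At 3w the SYN minus TH values were -0.998 for Meg3, -0.891 for Miat and -1.25 for Lncpint. At 5m they were 1.19 for Neat1, 1.48 for Mirg and -0.617 for Lncpint. At 18m they were 1.65 for Malat1, 1.37 for Neat1, 0.627 for Meg3, 0.484 for Rian, 2.67 for Mirg, 0.563 for Miat, 1.25 for Snhg11 and 1.86 for Kcnq1ot1. The change of Lncpint from 3w to 5m in SC differed between SYN and TH by 1.54.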

How the results depend on the processing

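Leaving out mitochondrially encoded genes changed none of 203 single-gene calls or directions, and DESeq2 left 197 of 203, library size 191 of 203 and no filter 193 of 203 as they were. With the mouse as a replicate block, members lower in SC over input in SYN at 18m were 5, and no call changed beyond those given with the results. With all 48 libraries in a single fit, 158 of 189 were as before. In that fit the members called were 5 for SC over input in SYN at 18m, 1 and 0 for input_TH at 5m over 3w and 18m over 5m, 3 for SC_TH and 4 for SC_SYN at 5m over 3w, 1 for SC_SYN at 18m over 5m, 3 and 3 for the SYN minus TH age changes in SC, and 0 and 0 for the age changes of carry-over in TH. DESeq2 called 2 in input_SYN at 5m over 3w, 1 in SC_SYN at 18m over 5m, and 3 and 3 of the SYN minus TH age changes in SC. No filter gave 1 in SC_SYN at 18m over 5m, and 3 and 1 of those age changes. Library size gave 1 for the SYN minus TH change at 18m over 5m in SC and 3 for the change of carry-over in TH at 18m. The share of counts in input_TH at 5m was 2.50% without mitochondrially encoded genes. The causes were not tested.

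With each mouse left out, the counts ran from 4 to 6 (SC over input in SYN at 5m), 3 to 6 (input_TH, 18m over 5m), 5 to 8 (SC_TH, 18m over 5m), 1 to 3 and 5 to 6 (SYN minus TH carry-over at 5m and 18m), 0 to 2 and 0 to 1 (SYN minus TH age changes in SC), and 1 to 4 and 0 to 5 (age changes of carry-over in TH). Signs that turned belonged to values that were not called. For SC over input in SYN at 18m, Malat1 ran from -0.38 to 0.22 and Mirg from -0.17 to 0.039. In input_TH, Malat1 at 5m over 3w ran from -0.028 to 0.015 and was 0.046 with library size, 0.0024 with DESeq2 and 0.0042 with all libraries. At 18m over 5m there, Meg3 ran from -0.013 to 0.072 and Miat from -0.015 to 0.097, and with library size they were -0.029 and -0.023. In SC_TH at 5m over 3w, Neat1 ran from -0.20 to 0.027 and Lncpint from -0.19 to 0.067. In SC_SYN at 5m over 3w, Malat1 ran from -0.027 to 0.45 and Miat from -0.041 to 0.24. At 18m over 5m there, Miat ran from -0.075 to 0.16 and Lncpint from -0.039 to 0.082, and Lncpint was -0.0094 without the filter and -0.0016 with all libraries. In SYN the lowest libraries held 5 reads of Lncpint, 8 of Mirg and 10 of Neat1, which limits their precision.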
